A study of Mus musculus with 1479 samples.

Results

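The genes that encode the contractile apparatus of smooth muscle were followed across single cells of the mouse urinary bladder. The set comprised 10 genes (Acta2, Myh11, Tagln, Cnn1, Des, Actg2, Smtn, Mylk, Lmod1 and Synpo2) of the 46517 gene rows in the count table. They were picked by name, with earlier results of these data known. The table holds 1479 cells from male mice of 10 to 20 weeks, each cell being one sample, and the labels place each cell in one of 11 clusters. Clusters 10 (125 cells) and 5 (76 cells) were examined in detail against the other 9 clusters together (1278 cells). The study named cluster 10 vascular mural cells, meaning the pericytes and smooth muscle cells around vessels, and cluster 5 sub-epithelial fibroblasts, whereas it read the rest as fibroblasts except cluster 4, which it left undefined.

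Cells came from 5 mouse lines. C57BL6 was labelled with no reporter (190 cells). Acta2GFP expressed green fluorescent protein from an Acta2 promoter transgene (129 cells), and Cspg4dsRED expressed a red protein from a Cspg4 transgene (203 cells). PdgfrbGFP carried a Pdgfrb-driven GFP transgene (810 cells), and PdgfraGFP had a nuclear histone-GFP fusion placed in the Pdgfra locus (147 cells). The reporter strains had been backcrossed to C57BL6. Endothelial CD31+ cells were left out by sorting, and elastase was added to the dissociation of the Acta2GFP bladders alone. Per the study, cells were sorted by reporter or by antibodies to the PDGF receptors, and cells with neither Pdgfra nor Pdgfrb were later removed. It describes the Acta2GFP isolation as one of Acta2-positive cells. Levels below therefore hold only for cells selected in this way. The lines sampled the clusters unequally. No PdgfraGFP cell was in cluster 10, 3 of its cells were C57BL6, and cluster 5 held no Acta2GFP cell. The labels name no animal. The mouse line therefore served as the replicate, and p-values measure only the spread between lines, part of which may be technical. Because the clusters had been drawn from the same expression values, a test between clusters shows only whether lines share a difference and is no independent evidence for it.

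Reads assigned to mouse genes ranged from 48455 to 1433402 per cell, with a median of 128369 in cluster 10, 256725 in cluster 5 and 220724 in the other clusters. Levels below are reads per 500000 gene reads. Each line's cells were averaged first, and the mean ± SD of these line values is given. Marker genes of the named cell types were high in both clusters. The summed level of 8 mural markers was 1600 to 3490 in the lines of cluster 10 against 95.5 to 169 in the other clusters and 47.2 to 322 in cluster 5, and that of 5 sub-epithelial markers was 1020 to 3130 in cluster 5 against 36.6 to 139. The 6 fibroblast markers summed to 456 to 1950 in cluster 10 and to 13800 to 24100 in cluster 5. In cluster 5 urothelial markers (6 genes, none at 0) spanned 0 to 85.3 and immune markers (6 genes, Cd3e and Cd79a at 0) 4.17 to 35.5, against highest lines of 33.5 and 11.7 in the other clusters. Endothelial markers (6 genes, none at 0) reached 228 in one line of cluster 10 and 25.2 at most in the other clusters. The 2 markers of interstitial cells of Cajal, Kit and Ano1, spanned 52.1 to 228 in cluster 10 and 0.0839 to 12.7 in the other clusters. Ano1 was the higher of the 2 in cluster 10 and Kit alone is not given, so this sum does not identify such cells. Striated muscle markers stayed at or under 0.0924 in cluster 10, with Ckm, Myh4, Tnnt3 and Mylpf of the 6 at 0. The part of these other cell types in the levels below was not tested.

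Smooth muscle shortens when the heavy chain Myh11, bundled in thick filaments, pulls on thin filaments of the actins Acta2 and Actg2. Calcium starts the process by activating Mylk, the kinase that phosphorylates the myosin light chain. Calponin (Cnn1), transgelin (Tagln), smoothelin (Smtn) and leiomodin (Lmod1) bind or build the thin filament, desmin (Des) forms the intermediate filaments that link the dense bodies, and Synpo2 is an actin-bundling protein of those structures. Many of these genes are switched on by serum response factor (SRF) with its partner myocardin, through a short DNA element called the CArG box. In the bladder wall, the detrusor muscle and the walls of arteries and veins use this set, and activated fibroblasts are known to take up part of it.

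The promoters of Acta2 and Des are shown because, of the genes with a promoter window, these were the ones called in opposite directions in cluster 5: both were high in cluster 10, but in cluster 5 Acta2 was raised and Des was close to 0. Promoter windows were found for 7 of the 10 genes, each running from 250 bases before the start to 50 bases after it (RefSeq, GRCm38.p6). Capitals mark CArG boxes with at most 1 G or C among the 6 central bases, and the MCAT element CATTCC, the site of TEAD factors, on either strand (GGAATG on the other). These motif rules were chosen after the sequences had been searched. Acta2 lies on the minus strand (chr19:34255324-34255623) and Des on the plus strand (chr1:75360042-75360341).
Acta2: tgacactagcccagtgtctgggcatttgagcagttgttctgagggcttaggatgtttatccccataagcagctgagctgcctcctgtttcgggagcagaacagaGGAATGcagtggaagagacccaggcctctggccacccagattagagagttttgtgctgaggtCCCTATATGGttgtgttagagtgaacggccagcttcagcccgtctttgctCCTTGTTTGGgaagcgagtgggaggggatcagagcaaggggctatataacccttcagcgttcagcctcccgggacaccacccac
Des: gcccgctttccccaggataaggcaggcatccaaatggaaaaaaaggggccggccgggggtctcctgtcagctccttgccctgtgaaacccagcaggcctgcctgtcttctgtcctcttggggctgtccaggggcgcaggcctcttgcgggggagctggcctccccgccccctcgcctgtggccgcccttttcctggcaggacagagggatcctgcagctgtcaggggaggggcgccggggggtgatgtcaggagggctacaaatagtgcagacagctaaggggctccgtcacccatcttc
The Acta2 window held 2 such CArG boxes, beginning 84 and 34 bases before the start, and 1 MCAT element 146 bases before it. The Des window held neither motif. No window of the 7 held a CArG box with only A and T in the centre, as 1.63% of all 32851 promoter windows did. With at most 1 G or C allowed, Acta2 was the single gene of the 7 with a match, against 9.98% of all windows, and 0.822% of all windows held 2 or more. MCAT elements were present in 4 of the 7 windows (Acta2, Lmod1, Mylk and Smtn) and in 14.7% of all windows. A match of letters is a description of the window and does not show that a factor binds there.

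Contractile transcripts formed a large block of the mRNA in cluster 10. The 10 genes together made up 2.40% of the gene reads of a cell there (12020 ± 3049 reads per 500000, 4 lines), 0.174% in cluster 5 (870.7 ± 300.8, 4 lines) and 0.0475% in the other clusters (237.4 ± 47.4, 5 lines). For every one of the 10 genes the highest mean level among the 11 clusters was in cluster 10, and in 9 of them the gap to the next cluster exceeded the larger SD, Synpo2 being the exception. The second place went to cluster 5 for Acta2, Actg2, Myh11, Tagln, Mylk and Lmod1, and for the first 4 of these the gap down to the third cluster was again beyond the larger SD. Cluster 8 held the second place for Des and Synpo2, cluster 4 for Smtn and cluster 3 for Cnn1. The plot of levels by cluster and line shows how far cluster 10 stood above the rest, and how cluster 5 was raised for some genes and lowest for Des.

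**Figure D1:**
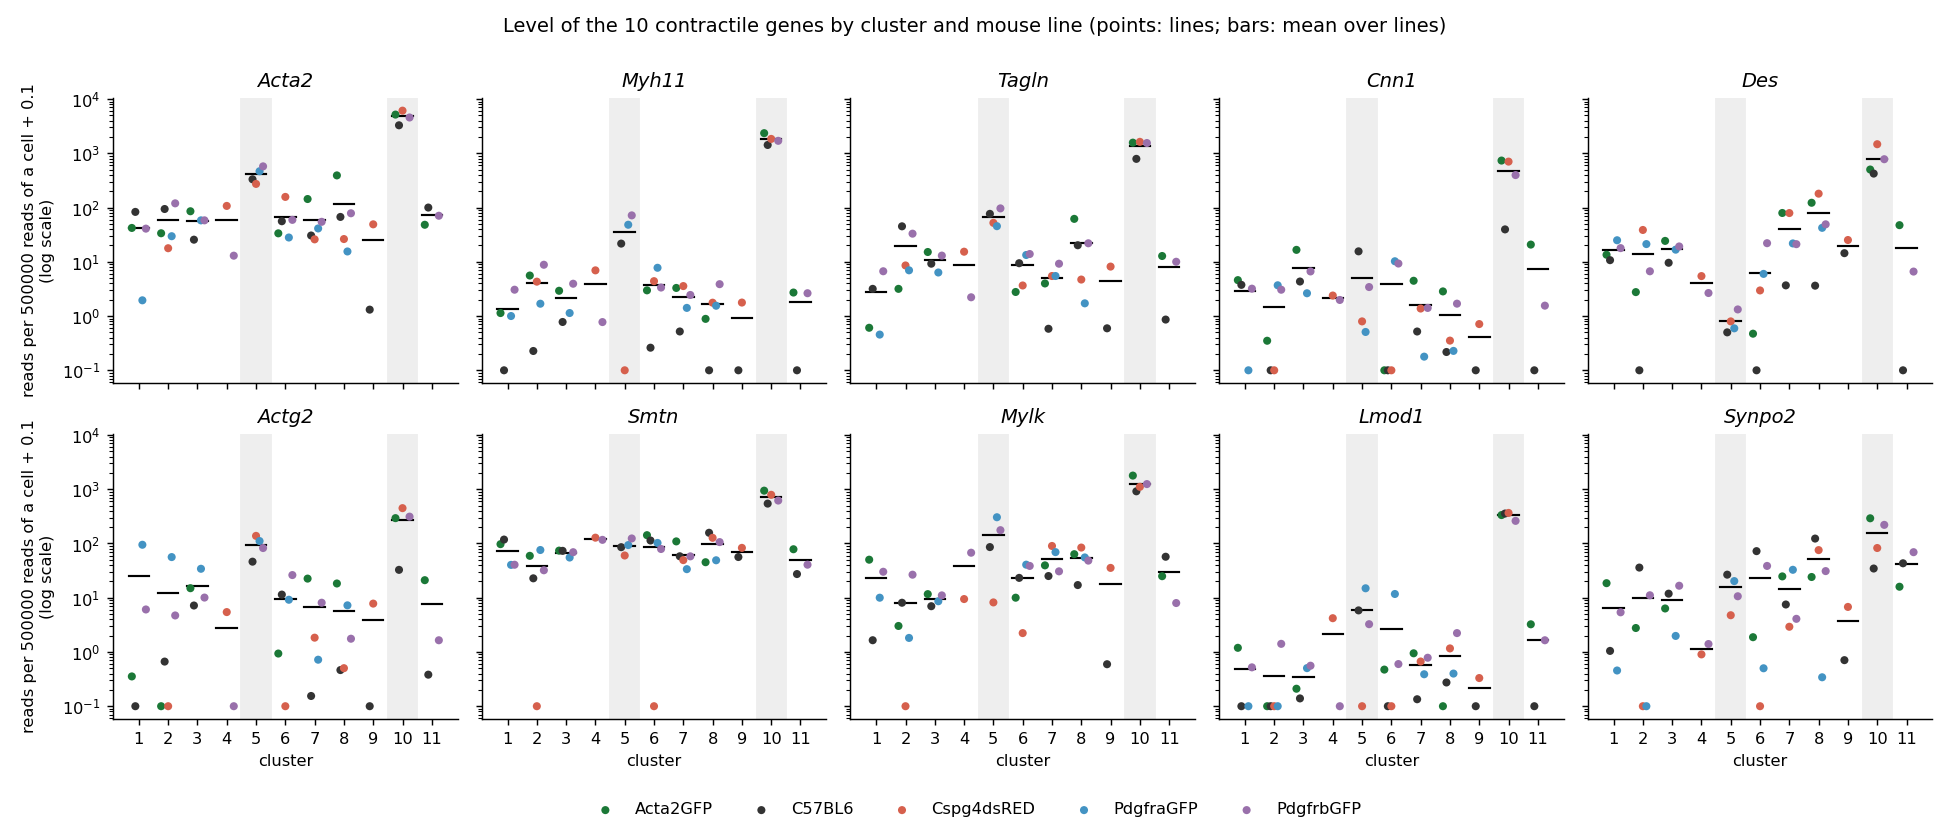
Level of the 10 contractile genes (reads per 500000 gene reads of a cell plus 0.1, log axis) in each of the 11 clusters (horizontal axis), with one point per mouse line of at least 3 cells, a bar for the mean over lines and grey bands for clusters 5 and 10. Cluster 10 was highest for all 10 genes, with a mean of 4792 for Acta2, while Des was lowest in cluster 5 at 0.704.

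In the comparison of cluster 10 with the other clusters, 9 of the 10 genes were called higher and none lower (edgeR quasi-likelihood test on sums per line, adjusted p under 0.05 over all genes and at least 4-fold). Of all 16265 genes tested, 1.93% were called higher. The median log2 fold change was 5.83 over the 10 genes and -0.76 over all genes tested, so that the typical gene lay below 0 on this scale. Cluster 5 against the other clusters gave 4 genes called higher (Acta2, Myh11, Tagln and Actg2), where 0.277% of all genes were, and 1 gene called lower (Des), where 0.529% were. In a fit of only those classes 1 gene, Acta2, was still called, and 3 were called without PdgfraGFP or without PdgfrbGFP. Leaving out a line also lowered the count of all genes called, and that count is not given here for the fit of only those classes. The lost calls therefore cannot be read as particular to the 10 genes. The medians for cluster 5 against the other clusters were 2.36 over the 10 genes and -0.65 over all genes. Between clusters 10 and 5, 8 of the 10 genes were called higher in cluster 10, where 1.85% of all genes were, and the medians were 3.70 and -0.03. In the alternative with ERCC scaling 6 genes were called between clusters 10 and 5. The share of all genes called in that alternative is not given here, so the lower count cannot be read as particular to the 10 genes. The 3 comparisons share sums of reads, so their results are not independent of each other.

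**Figure D2:**
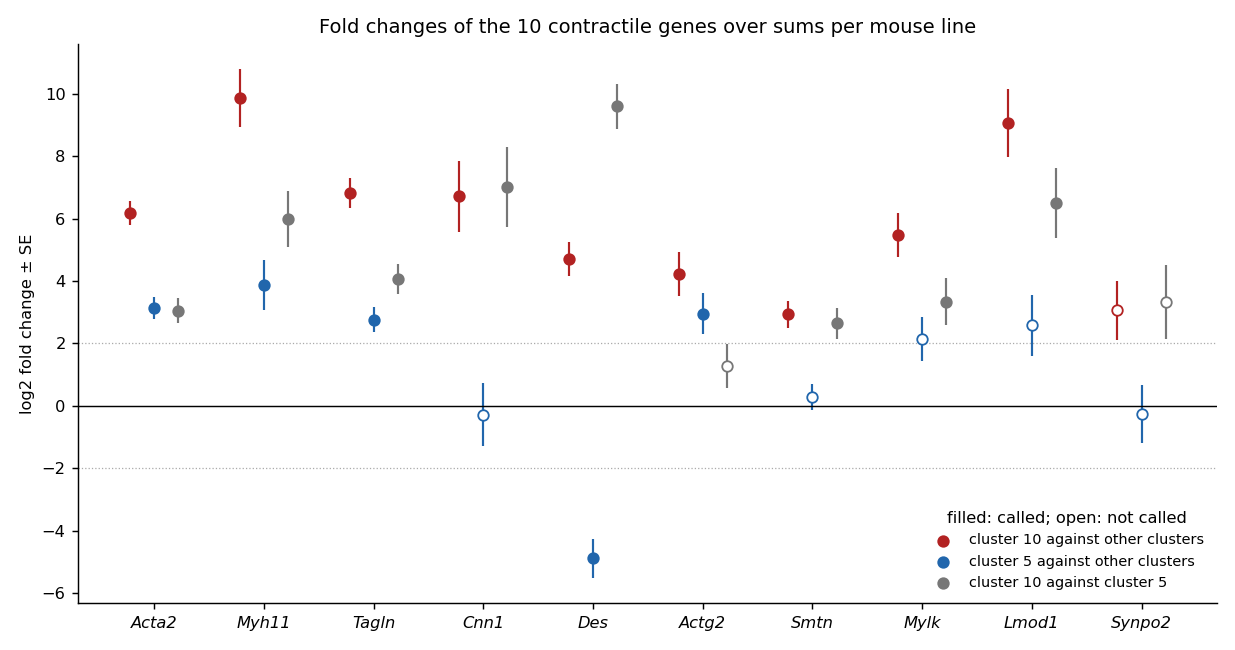
Log2 fold change with its SE (vertical axis) of each contractile gene (horizontal axis) in the 3 comparisons of clusters, from sums of reads per mouse line. Filled points passed the adjusted p and the 4-fold threshold (dotted lines at log2 values of 2 and -2) and open points did not. Des had a log2 fold change of 4.70 in cluster 10 and of -4.89 in cluster 5, both against the other clusters.

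The smooth muscle actins came first. Acta2 (chr19:34241090-34255590, GRCm38, minus strand) encodes the main alpha-actin of vascular smooth muscle. Its level in cluster 10 was 5180 in Acta2GFP, 3289 in C57BL6, 6122 in Cspg4dsRED and 4578 in PdgfrbGFP. In cluster 5 it was 575 in PdgfrbGFP, 468 in PdgfraGFP, 273 in Cspg4dsRED and 332 in C57BL6, and in the other clusters it ran from 31.4 to 97.9 over the 5 lines. The 3 sets of lines did not overlap. Acta2 was 72.8-fold higher in cluster 10 than in the other clusters (log2 fold change 6.19 ± 0.38, adjusted p = 4.21e-08) and 8.80-fold higher in cluster 5 (3.14 ± 0.36, adjusted p = 0.00011). Clusters 10 and 5 differed 8.26-fold (3.05 ± 0.39, adjusted p = 8.13e-05). In cluster 10 the Acta2 reads of a cell rose by only 0.29 on the log2 scale per doubling of its depth, so its level and folds there depend on the depth of the cells and are not exact.

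Actg2 (chr6:83512905-83536265, minus strand) encodes the gamma-actin that prevails in visceral smooth muscle such as gut and bladder muscle. Its level in cluster 10 was 293 in Acta2GFP, 32.6 in the 3 cells of C57BL6, 448 in Cspg4dsRED and 313 in PdgfrbGFP. Cluster 5 reached 82.3 in PdgfrbGFP, 111 in PdgfraGFP, 138 in Cspg4dsRED and 46.1 in C57BL6, which overlapped the range of cluster 10 through its C57BL6 cells. The other clusters ran from 4.27 to 21.96. Actg2 was 18.8-fold higher in cluster 10 than in the other clusters (4.23 ± 0.71, adjusted p = 0.000959) and 7.76-fold higher in cluster 5 (2.96 ± 0.65, adjusted p = 0.0399). Between clusters 10 and 5 the fold of 2.43 did not pass the test (1.28 ± 0.70, adjusted p = 0.415). The call in cluster 5 was lost with ERCC scaling (adjusted p = 0.0813) and when Acta2GFP, Cspg4dsRED, PdgfraGFP or PdgfrbGFP was left out (adjusted p from 0.0629 to 0.277), while the log2 fold change stayed between 2.89 and 3.13.

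By their means, the 2 muscle actins stood in different proportions in clusters 10 and 5, a difference that was not tested. Per kilobase of exon, Acta2 reached 2182 ± 540 and Actg2 174 ± 112 in cluster 10, but 188 ± 61.9 and 60.6 ± 25.3 in cluster 5. Actins are near-identical proteins, and their reads can be shared: 0.326% of the 50-base windows of Acta2 transcripts and none of those of Actg2 occurred in a transcript of another gene, but 9.12% of those of Actb and 37.4% of those of Actg1 did, so the levels of these 2 genes are uncertain. The cytoplasmic actins differed less. Actb had a level of 3000 ± 488.7 in cluster 10 and 1484 ± 216.1 in the other clusters (log2 fold change 0.86 ± 0.18, adjusted p = 0.00582, under the 4-fold threshold), and Actg1 had 737.8 ± 159.8 and 601.6 ± 127.8 (0.07 ± 0.28, adjusted p = 0.94). The striated muscle actins Acta1 and Actc1 stayed at 7.76 ± 5.02 and 4.44 ± 8.46 in cluster 10 and passed no test.

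The motor and its switch were also highest in cluster 10. Myh11 (chr16:14194535-14291372, minus strand) is the smooth muscle myosin heavy chain and a standard marker of differentiated smooth muscle. Its level in cluster 10 was 2354 in Acta2GFP, 1426 in C57BL6, 1845 in Cspg4dsRED and 1701 in PdgfrbGFP, whereas in the other clusters no line exceeded 3.43. Cluster 5 lay between them, at 21.6 in C57BL6, 48.1 in PdgfraGFP and 71.7 in PdgfrbGFP, with no read in the 3 cells of Cspg4dsRED. Myh11 was 929-fold higher in cluster 10 than in the other clusters (9.86 ± 0.92, adjusted p = 2.4e-06), the widest gap of the 10 genes. It was 14.6-fold higher in cluster 5 than in the other clusters (3.86 ± 0.79, adjusted p = 0.0237), a call that was lost without C57BL6, PdgfraGFP or PdgfrbGFP (adjusted p from 0.0872 to 0.272). The difference between clusters 10 and 5 was 63.9-fold (6.00 ± 0.90, adjusted p = 0.000408).

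Mylk (chr16:34745210-35002420, plus strand) encodes the myosin light chain kinase. Its level in cluster 10 was 1786 in Acta2GFP, 916 in C57BL6, 1108 in Cspg4dsRED and 1245 in PdgfrbGFP, and in the other clusters 14.1 to 39.5. In cluster 5 the lines ranged widely, from 8.10 in the 3 Cspg4dsRED cells through 85.7 in C57BL6 and 176 in PdgfrbGFP to 305 in PdgfraGFP. Mylk was 44.5-fold higher in cluster 10 than in the other clusters (5.48 ± 0.70, adjusted p = 6.62e-05) and 10.1-fold higher in cluster 10 than in cluster 5 (3.34 ± 0.75, adjusted p = 0.0137). The second of these calls was lost without C57BL6 (adjusted p = 0.0968) and with ERCC scaling (adjusted p = 0.0547). Cluster 5 against the other clusters gave 4.41-fold, which did not pass the adjusted threshold (2.14 ± 0.69, adjusted p = 0.159). Without the Cspg4dsRED line it passed (2.96, adjusted p = 0.00059), as it did with sums of at least 10 cells (2.86, adjusted p = 0.00381).

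Of the thin filament proteins, Tagln (chr9:45929619-45936058, minus strand) encodes transgelin, also called SM22-alpha. Its level in cluster 10 was 1574 in Acta2GFP, 791 in C57BL6, 1629 in Cspg4dsRED and 1550 in PdgfrbGFP, so that the 3 C57BL6 cells stood below the other lines, which lay close together. In cluster 5 it was 96.6 in PdgfrbGFP, 45.3 in PdgfraGFP, 52.2 in Cspg4dsRED and 76.5 in C57BL6, and in the other clusters 6.83 to 16.2. The 3 sets of lines did not overlap. Exons of Pcsk7 overlap 108 exon bases of Tagln on the opposite strand. Tagln was 114-fold higher in cluster 10 than in the other clusters (6.83 ± 0.48, adjusted p = 1.42e-07), 6.79-fold higher in cluster 5 (2.76 ± 0.42, adjusted p = 0.00161) and 16.7-fold higher in cluster 10 than in cluster 5 (4.07 ± 0.49, adjusted p = 4.23e-05).

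Cnn1 (chr9:22099216-22109630, plus strand) encodes basic calponin, a brake on actomyosin that is used as a marker of mature smooth muscle. In cluster 10 its level was 736 in Acta2GFP, 39.5 in C57BL6, 704 in Cspg4dsRED and 397 in PdgfrbGFP. In cluster 5 it was 3.33 in PdgfrbGFP, 0.409 in PdgfraGFP, 0.697 in Cspg4dsRED and 15.5 in C57BL6, which overlapped the 0.804 to 13.7 of the other clusters. Cnn1 was therefore not among the genes raised in cluster 5 (log2 fold change -0.29 ± 1.01, adjusted p = 0.985), and the sign of this small difference changed with the setting. Against the other clusters Cnn1 was higher in cluster 10 (log2 fold change 6.72 ± 1.14, adjusted p = 0.00111), and against cluster 5 it was 129-fold higher (7.01 ± 1.29, adjusted p = 0.00258).

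Lmod1 (chr1:135324807-135368065, plus strand) encodes leiomodin-1, which nucleates actin filaments in smooth muscle. Its level was the most even over lines in cluster 10, at 334 in Acta2GFP, 356 in C57BL6, 366 in Cspg4dsRED and 261 in PdgfrbGFP. The other clusters held almost none, from 0.0416 to 2.95, and cluster 5 ranged from no read in the 3 Cspg4dsRED cells to 14.8 in PdgfraGFP. Lmod1 was 539-fold higher in cluster 10 than in the other clusters (9.07 ± 1.09, adjusted p = 3.51e-05) and 90.4-fold higher than in cluster 5 (6.499 ± 1.11, adjusted p = 0.0015). Cluster 5 against the other clusters did not pass (2.57 ± 0.97, adjusted p = 0.237).

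Smtn (chr11:3517523-3540612, minus strand) encodes smoothelin, a cytoskeletal protein of contractile smooth muscle. Its fitted fold in cluster 10 was the smallest of the 10 genes. Its level there was 942 in Acta2GFP, 544 in C57BL6, 789 in Cspg4dsRED and 619 in PdgfrbGFP, against 62.8 to 85.5 in the other clusters and 59.96 to 124 in cluster 5. Clusters 5 and the other clusters overlapped, with a log2 fold change of 0.29 ± 0.42 (adjusted p = 0.951). Smtn was 7.59-fold higher in cluster 10 than in the other clusters (2.93 ± 0.45, adjusted p = 0.000403) and 6.22-fold higher than in cluster 5 (2.64 ± 0.49, adjusted p = 0.0027). Scaling to the spiked-in ERCC control RNA ended the second call (1.94, adjusted p = 0.0664). Exons of Gm11946 and Gm11947 on the opposite strand overlap 753 exon bases of Smtn. Gm11946 was 6.99-fold higher in cluster 10 than in the other clusters (2.81 ± 0.72, adjusted p = 0.0269), and the reads of the pair cannot be told apart where they overlap.

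Des was the gene of the 10 called lower in cluster 5. Des (chr1:75360329-75368579, plus strand) encodes desmin, the muscle intermediate filament. In cluster 10 its level was 503 in Acta2GFP, 423 in C57BL6, 1473 in Cspg4dsRED and 779 in PdgfrbGFP. In the other clusters it was lowest in C57BL6 at 5.85, then 20.2 in PdgfraGFP, 24.5 in PdgfrbGFP, 42.9 in Cspg4dsRED and 43.6 in Acta2GFP. Cluster 5 stood below every one of these, at 1.23 in PdgfrbGFP, 0.494 in PdgfraGFP, 0.697 in Cspg4dsRED and 0.401 in C57BL6. Taken singly, however, clusters 2, 6 and 11 of the others also held a line with a Des level of 0. Exons of Gm15179 overlap 220 exon bases of Des on the opposite strand. In all, 37 Des reads fell in the 76 cells of cluster 5, and no cell had more than 5. Des was 26.0-fold higher in cluster 10 than in the other clusters (4.70 ± 0.56, adjusted p = 3.12e-05) and 29.7-fold lower in cluster 5 (-4.89 ± 0.61, adjusted p = 0.000299). The second fold is one of means, which a minority of cells carried in the other clusters: the median cell had no Des read in either, the upper quartile was 4.694 in the other clusters and 1.105 in cluster 5, and the highest cells had 1347 and 6.838. The distance between clusters 10 and 5, 774-fold, was the largest of the 10 genes in that comparison (9.60 ± 0.73, adjusted p = 3.68e-07). Synm, the partner of desmin in intermediate filaments, did not pass in either comparison with the other clusters (1.97 ± 1.21 with adjusted p = 0.404 in cluster 10, and -0.48 ± 1.16 with adjusted p = 0.978 in cluster 5), and Vim, the fibroblast intermediate filament gene, had a log2 fold change of 0.08 ± 0.23 (adjusted p = 0.913) in cluster 10 and of -0.76 ± 0.23 (adjusted p = 0.144) in cluster 5.

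Synpo2 (chr3:123076519-123236149, minus strand) encodes synaptopodin-2, or myopodin. Its level in cluster 10 was 291 in Acta2GFP, 34.5 in C57BL6, 82.4 in Cspg4dsRED and 220 in PdgfrbGFP, above the 8.47 to 30.8 of the other clusters. The ranges did not overlap, but the fold of 8.33 missed the adjusted threshold (3.06 ± 0.95, adjusted p = 0.0602). It passed in 9 alternative fits, among them the one without C57BL6 (3.77, adjusted p = 0.0167). In cluster 5 it was 4.66 to 26.5, and neither comparison that involves cluster 5 passed (against the other clusters -0.26 ± 0.93, adjusted p = 0.985, and between clusters 10 and 5 3.32 ± 1.18, adjusted p = 0.141).

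Reads from the most abundant genes were compared with the length of their exons. In cluster 10 a cell had a median of 1422 Acta2 reads, which is 0.6475 reads per exon base, and at most 0.961. Tagln reached a median of 0.216 and a maximum of 0.5865 reads per base, while the other 8 genes had medians of 0.0709 or less. Across the cells of cluster 10, a doubling of the reads of a cell went with an increase of 0.29 in log2 Acta2 reads and of 0.72 in log2 Tagln reads, against 1.42 for Mylk and 1.12 for Myh11. Actg2 (0.15) and Cnn1 (0.66), which had far fewer reads per base, also had low values, and the other 4 genes lay between 1.05 and 1.13, where a proportional relation would give about 1. Reads of Acta2 therefore rose less than in proportion to the reads of the cell. Per kilobase of exon the order of levels in cluster 10 was Acta2 (2182), Tagln (697), Myh11 (241), Des (212), Actg2 (174), Cnn1 (171.5), Smtn (165), Mylk (112), Lmod1 (83.4) and Synpo2 (12.01). From Myh11 to Smtn the neighbours differed by less than the larger SD over lines.

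Single cells of cluster 10 shared a core and varied in the rest. With every cell thinned to 50000 reads, Acta2 was detected in 100% of the 125 cells (95% exact binomial interval 97.1 to 100), and Myh11, Tagln and Mylk were each detected in 99.2% (95.6 to 100). Des was found in 94.4%, Lmod1 and Smtn in 86.4% each, Cnn1 in 78.4%, Actg2 in 63.2% (54.1 to 71.6) and Synpo2 in 52.0% (42.9 to 61.0). Without thinning the last 2 shares were 72.0% and 61.6%. The intervals cover counting error only and leave out the spread between lines and plates. These reads carry no molecular identifiers. A median of 9 of the 10 genes had a read in a thinned cell of cluster 10, 4 in cluster 5 and 3 in the other clusters, and all 10 were found together in 33 cells, every one of them in cluster 10. The level per 500000 reads varied between cells: the middle 50% of cells spanned 3665 to 7155 for Acta2 (1144 to 1716 in reads as counted, which followed depth little) and 1124 to 2433 for Myh11, but 9.88 to 847.7 for Cnn1 and 0 to 612.5 for Actg2.

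**Figure D3:**
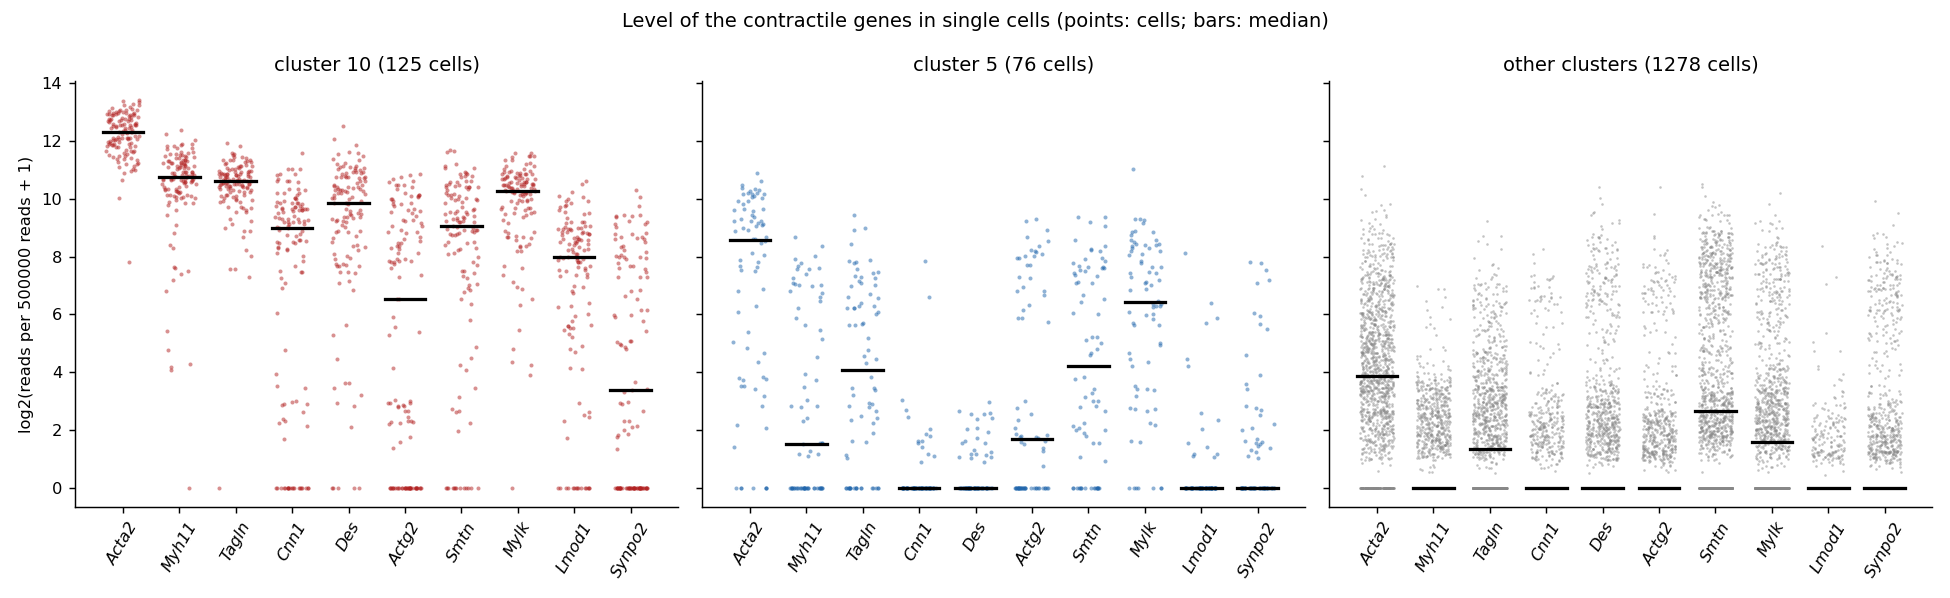
Level of each contractile gene in single cells, as log2(reads per 500000 gene reads + 1), with one point per cell and a bar for the median, for cluster 10 (125 cells), cluster 5 (76 cells) and the other clusters (1278 cells). Cnn1, Actg2, Smtn, Lmod1 and Synpo2 ran from no read to high levels within cluster 10, and Des stayed near the bottom in cluster 5.

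The genes varied together only in part. Over the 45 pairs, Pearson's r of log2(level + 1) across the 125 cells of cluster 10 had a median of 0.198 and ran from -0.059 (Acta2 and Synpo2) to 0.654 (Myh11 and Tagln). Next came Myh11 with Mylk (0.563), Acta2 with Tagln (0.513) and Cnn1 with Smtn (0.496), while Acta2 with Lmod1 (0.00356) and Tagln with Lmod1 (0.0578) were near 0. Des, Mylk, Lmod1 and Synpo2 had the lowest median r with the other 9 genes (0.163, 0.141, 0.0999 and 0.0958), and Tagln the highest (0.372). Of 4 mural markers, Rgs5, which is strongest in pericytes, had a negative r with each of the 10 genes, from -0.533 with Acta2 to -0.0627 with Lmod1. The others went both ways: Pdgfrb from -0.435 with Acta2 to 0.187 with Synpo2, Kcnj8 from -0.266 with Myh11 to 0.166 with Actg2, and Cspg4 from -0.162 with Lmod1 to 0.323 with Acta2. These values describe cells that share lines, plates and depth, and in thinned cells the median r between the genes was 0.201. In cluster 5 the median was 0.209, and 0.167 in thinned cells, with the highest values for Acta2 with Myh11 (0.495) and Actg2 (0.447), Myh11 with Tagln (0.445) and Cnn1 with Lmod1 (0.444), and Tnc, the gene by which the study marked that cluster, had an r from 0.0338 with Tagln to 0.402 with Mylk. The other genes computed there gave -0.185 with Mylk to 0.376 with Myh11 for Pdgfrb, -0.0774 with Mylk to 0.127 with Actg2 for Pdgfra, and -0.214 with Tagln to 0.083 with Cnn1 for Col1a1.

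**Figure D4:**
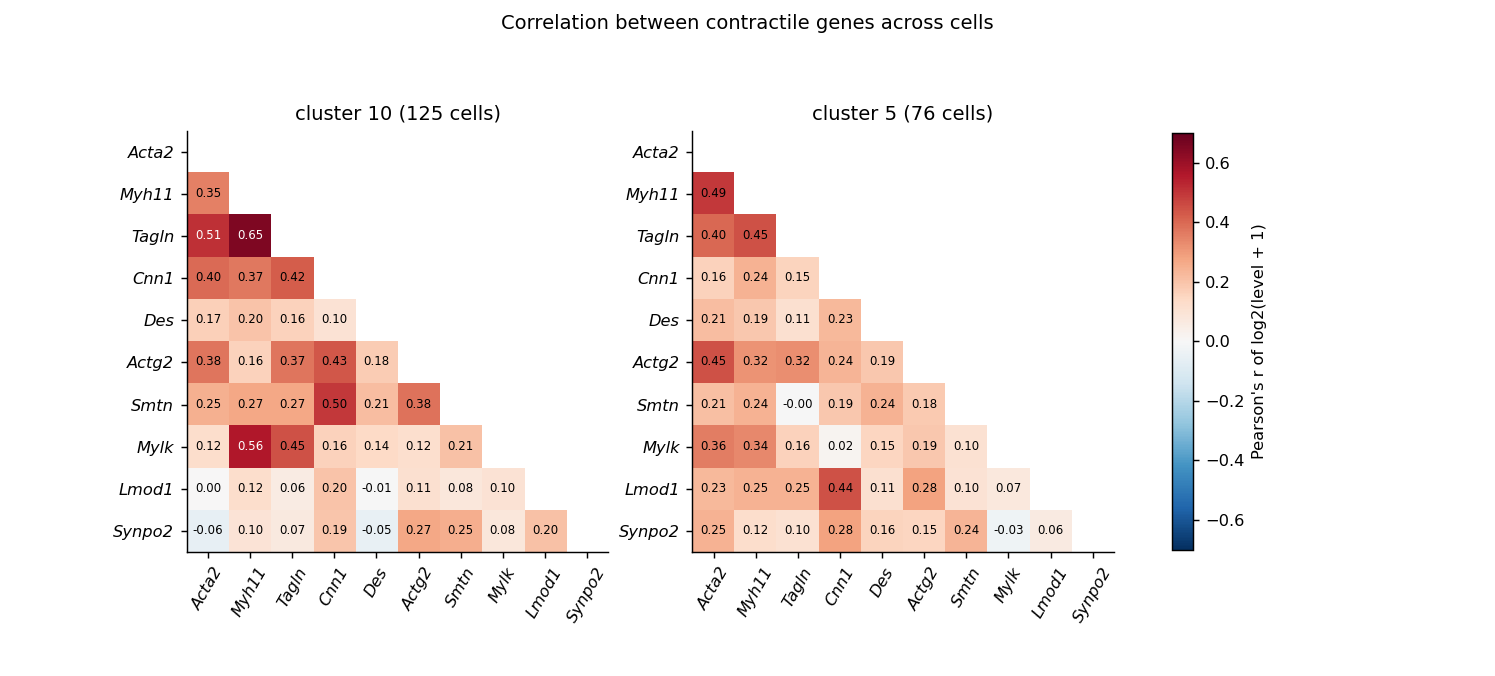
Pearson's r of log2(level + 1) between each pair of contractile genes across the 125 cells of cluster 10 (left) and the 76 cells of cluster 5 (right), on a colour scale from -0.7 to 0.7. The darkest field in cluster 10 is Myh11 with Tagln (0.654), and the rows of Lmod1 and Synpo2 are pale.

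Cells of cluster 5 held very unequal amounts of the genes that were raised there. The lower quartile of their Acta2 level was 17.6, the median 378.6, the upper quartile 797 and the maximum 1909, and 7 of the 76 cells had no Acta2 read. After thinning Acta2 was detected in 85.5% of cluster 5 cells, Mylk in 80.3%, Tagln and Smtn in 59.2% each, and Myh11 and Actg2 in 39.5% each. The corresponding shares in the other clusters were 66.9%, 34%, 30.3%, 51.4%, 16.6% and 14.5%. Des was detected in 9.21% of cluster 5 cells (95% interval 3.78 to 18.1) and 25.6% (23.2 to 28.0) of those of the other clusters. For Cnn1 the shares were 5.26% (1.45 to 12.9) and 10.7% (9.05 to 12.5). These intervals pool cells over lines and plates, so they do not test a difference between the clusters. By plate, the Acta2 level in cluster 5 was 268 to 838 over the 5 combinations of plate and line with at least 3 cells, against 31.4 to 109 in the other clusters, and Des was at most 2.23 against at least 5.85.

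Each of the 9 other clusters was next compared with the mean of the remaining 8 (edgeR, sums per line and cluster, adjusted p under 0.05 and at least 2-fold), and 0 of the 90 pairs of a gene and a cluster were called, where 0.595% of all pairs of a gene and a cluster were, a share at which a count of 0 in 90 says nothing particular about these genes. At an unadjusted p under 0.05 there were 5 pairs, and DESeq2 called 2, Mylk (-2.40, adjusted p = 0.0187) and Smtn (-1.56, adjusted p = 0.0329), both lower in cluster 2. Among these clusters, cluster 8 had the highest mean for 5 of the 10 genes (Acta2, Des, Synpo2, Tagln and Mylk), with 116 ± 156.5 for Acta2, 79.6 ± 70.9 for Des and 50.7 ± 48.8 for Synpo2. Acta2 in cluster 8 was 392 in Acta2GFP, 78.5 in PdgfrbGFP, 67.1 in C57BL6, 26.2 in Cspg4dsRED and 15.4 in PdgfraGFP, so that the mean rested on the line whose reporter is driven by the Acta2 promoter. Des in cluster 8 was 180 in Cspg4dsRED, 123 in Acta2GFP, 49.0 in PdgfrbGFP, 42.2 in PdgfraGFP and 3.53 in C57BL6 (log2 fold change 1.79 ± 0.85, unadjusted p = 0.0422). Smtn was present in all of these clusters, with means from 37.9 in cluster 2 to 122 in cluster 4.

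For several of the genes, the share of cells of the other clusters with a read went with the position of the cell on its plate. Cells of the other clusters had a Myh11 read in 18.7% of cases (15.3 to 22.4) when no cluster 10 cell lay in the same row or column, in 47.2% with 1 to 4 such cells and in 71.0% (63.1 to 78.0) with 5 or more. Lmod1 went from 2.46% to 38.1%, Tagln from 39.6% to 80.0%, Cnn1 from 14% to 47.7% and Acta2 from 76.0% to 99.4%. Des went from 42.7% to 69.0% and Mylk from 53.0% to 68.4%. Smtn did not follow this order (80.1%, 70.0% and 67.1%), nor did Synpo2 (46.0%, 36.0% and 41.9%) or Actg2 (35.5%, 33.5% and 45.2%). Plates differ in line and in the number of cluster 10 cells, and cells were taken at their own depth here. Within plates the Myh11 share was higher with such a neighbour in each of the 5 combinations of plate and line that had at least 10 cells of both kinds. The Cspg4dsRED plate with 49 cluster 10 cells had 8 cells without such a neighbour and was not compared. The share without and with such a neighbour was 21% and 60.3% on the PdgfrbGFP plate with 4 cluster 10 cells, 4.96% and 15.7% on the C57BL6 plate, 32.7% and 87.7% on the PdgfrbGFP plate with 20, 6.67% and 37.3% among PdgfrbGFP cells of the plate with 33, and 27.3% and 31.4% among PdgfraGFP cells. On the C57BL6 plate Tagln (32.2% and 27.5%), Cnn1 (6.61% and 3.92%) and Lmod1 (2.48% and 1.96%) did not follow the order, nor did Cnn1 among PdgfraGFP cells (9.09% and 8.57%). The source of these reads was not tested. In cells with no such neighbour the mean Acta2 level of the other clusters was 28.5 and that of cluster 5 was 454. For Des these levels were 12.8 and 0.587. The cluster 5 comparison restricted to such cells called 7 of the 10 genes, now including Mylk (3.22, adjusted p = 1.14e-05) and Lmod1 (4.54, adjusted p = 0.0177). The share of all genes called in that fit is not given here, so the count cannot be read as particular to these genes. The Lmod1 level in such cells was 4.507 ± 3.097 in cluster 5 and 1.565 ± 3.015 in the other clusters, so its fitted fold change is no measure of size.

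**Figure D5:**
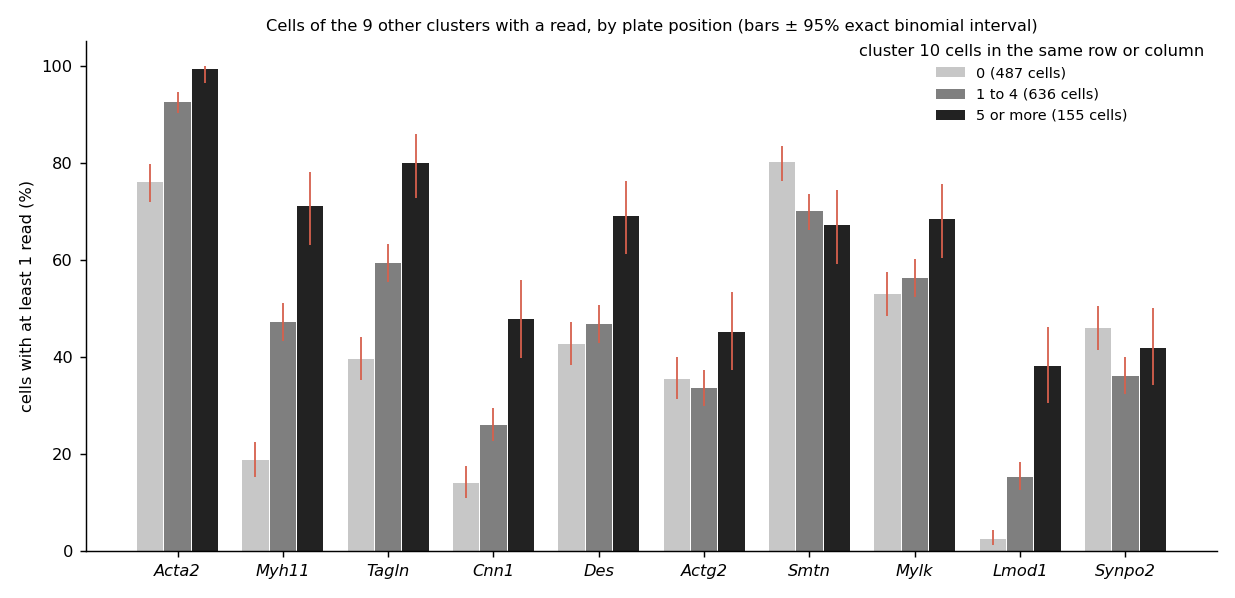
Share of cells of the 9 other clusters with at least 1 read (vertical axis, percent, with 95% exact binomial intervals) of each contractile gene, for cells with 0, 1 to 4 or 5 or more cluster 10 cells in the same row or column of the plate. The share with a Myh11 read was 18.7%, 47.2% and 71.0% in these 3 sets, whereas for Smtn it was 80.1%, 70.0% and 67.1%.

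The wider contractile pathway was read from 57 further genes in 3 lists, all of which were tested. In cluster 10 against the other clusters, 23 were called higher and 1 lower, with a median log2 fold change of 1.60. Over all genes tested 1.93% were called higher and 4.47% lower. The list of filament and dense-body genes gave 16 higher and 1 lower of 37. Its largest changes were those of Ldb3, a Z-line PDZ protein (10.10 ± 1.55, adjusted p = 0.000439, 126 reads in the other clusters), and Myl9, the regulatory light chain (5.71 ± 0.43, adjusted p = 2.76e-07). The smallest calls were those of the light chain Myl6 (2.03 ± 0.42, adjusted p = 0.00581), the alpha-actinin Actn4 (2.09 ± 0.41, adjusted p = 0.00431) and Lpp (2.22 ± 0.50, adjusted p = 0.0118), and the gene called lower was Smtnl2, a relative of smoothelin (-4.94 ± 1.30, adjusted p = 0.0303). The switch that phosphorylates and dephosphorylates the light chain gave 5 higher of 12, led by Mrvi1, a target of the cGMP-dependent kinase (5.93 ± 1.09, adjusted p = 0.00229), and including Prkg1, Ppp1r12a, Ppp1r12b and Ppp1cb. Of 8 transcription factors, Myocd (8.61 ± 1.73, adjusted p = 0.00498) and Mef2c (4.74 ± 0.89, adjusted p = 0.00273) were higher, while Srf itself, to which myocardin binds, had 1.19 ± 1.72 (adjusted p = 0.804).

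In cluster 5 the same 57 genes gave 4 called higher and none lower against the other clusters, with a median of 0.21. They were Palld, which encodes the actin-bundling protein palladin (4.53 ± 0.49, adjusted p = 8.2e-05), Myl9 (3.61 ± 0.42, adjusted p = 0.000157), Cnn2, the non-muscle calponin (2.26 ± 0.39, adjusted p = 0.00522), and Csrp1 (2.05 ± 0.44, adjusted p = 0.0338). Palld had a level of 339 ± 73.3 in cluster 5 and 355 ± 90.5 in cluster 10 against 13.8 ± 2.97 in the other clusters, and the difference between clusters 10 and 5 was 0.24 ± 0.51 (adjusted p = 0.924). None of the 12 switch genes or the 8 transcription factors was called in cluster 5, where 0.277% of all genes were called higher and 0.529% lower, so that nothing can be read from this count. Myocd had reads in 2 of the 4 lines there, with a level of 8.86 ± 17.6 against 267.7 ± 129.6 in cluster 10. Between clusters 10 and 5, 11 of the 57 genes were called higher in cluster 10 and none lower, where 1.85% and 1.99% of all genes were, among them Mef2c (7.35 ± 1.07, adjusted p = 0.000303) and Pdlim3 (5.65 ± 0.91, adjusted p = 0.000808), and with smaller changes Myl6 (2.21 ± 0.47, adjusted p = 0.00881) and Myl9 (2.10 ± 0.46, adjusted p = 0.0114). Ldb3 was also called (adjusted p = 0.0195), with a level of 112.3 ± 47.98 in cluster 10 and 3.837 ± 7.674 in cluster 5, where all 130 reads lay in 1 line, so that its fitted fold change is no measure of size.

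Over the 43 sums of a line and a cluster, the genes outside the set whose log2 level most resembled the mean profile of the 10 were Myom1 (Pearson's r 0.913), Gm44596 (0.911), Nrip2 (0.903), Pcp4l1 (0.891) and Sncg (0.888). The members themselves ranged from 0.631 for Des and 0.649 for Synpo2 to 0.916 for Myh11 and 0.926 for Lmod1. Myh11 and Lmod1 were the closest pair (0.960). Outside the set, the nearest gene was Myom1 for Myh11 (0.937) and Lmod1 (0.932), Ngb for Acta2 (0.814), Nrip2 for Tagln (0.859), Susd5 for Cnn1 (0.869), Hspb6 for Des (0.747), Palld for Actg2 (0.776), Ppp1cb for Mylk (0.764), Actn1 for Synpo2 (0.696) and Gm11946, its opposite-strand neighbour, for Smtn (0.936). These correlations are descriptions over sums that share lines and plates.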

How the data were processed

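Single bladder cells of 5 mouse lines were processed by the authors with the Smart-seq2 protocol and sequenced as single reads of 50 bases. Per the labels and the methods, reads were aligned to GRCm38 with TopHat2 and Bowtie, reads called doublets were removed with samtools and featureCounts gave the deposited raw counts per gene. The annotation release and strand setting are not given in the sources used here. Gene rows (46005 of 46517) were matched by Ensembl identifier to GENCODE M21, of the same build, and the 92 ERCC rows were left out of totals. The 10 genes, the pathway and marker lists and the naming rule (the 10 genes, up to 3 called pathway genes with the largest and the smallest changes, the other actins, and the genes most alike) were chosen with earlier results of these data known. Myl9 and Mef2c in cluster 10, Srf, Vim, Synm, Prkg1, Ppp1r12a, Ppp1r12b, Ppp1cb, Gm11946, Rgs5, Pdgfrb, Kcnj8, Cspg4 and Tnc were named after their values were seen.

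Counts were summed per line and class (cluster 10, cluster 5, other clusters) where at least 3 cells were present, giving 13 sums of 470928 to 224844449 reads. One edgeR 4.0.16 quasi-likelihood fit (TMM, filterByExpr, line as block) gave the 3 comparisons, with Benjamini-Hochberg adjustment over all genes. SEs were taken as the log2 fold change divided by the root of F. Lines were paired across classes by the line itself, which is why the block is in the fit. The fits were tested on simulated counts. Shares used cells thinned to 50000 reads, which left out 6 cells, with 95% Clopper-Pearson intervals. Alternatives included DESeq2 1.42.0, other scalings, other sums of cells and leaving out each line. One pathway gene that the naming rule selects is not reported here.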

Additional observations from a re-analysis of the deposited data

Results flagged for a closer look

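In 10 of the 90 groups of lines tested, the highest or lowest line stood farther from the others than Dixon's test allows at the 95% level. That level assumes independent, normally distributed values. Some of these levels lie near 0, they average unequal numbers of cells, and some groups share cells. The count of 10 therefore cannot be set against chance. Acta2 was high in Acta2GFP in cluster 8 (391.8, next line 78.46) and cluster 7 (143.7, next line 54.54), and in the 3 Cspg4dsRED cells of cluster 6 (157.2, next line 59.24). Actg2 was high in PdgfraGFP in cluster 1 (94.66, 5 cells, next line 5.975) and cluster 2 (56.05, 25 cells, next line 4.612). Tagln was low in the 3 C57BL6 cells of cluster 10 (790.7, next line 1550). Lmod1 was high in PdgfraGFP in cluster 6 (11.62, next line 0.4987) and in PdgfrbGFP in cluster 2 (1.312, with no read in the other lines). Des was high in PdgfrbGFP in cluster 6 (21.95, next line 5.892), and Cnn1 in Acta2GFP in cluster 7 (4.374, next line 1.312). These are levels in reads per 500000 gene reads of a cell.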

How the results depend on the processing

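In cluster 10 against the other clusters, 161 of the values of single genes under an alternative kept their direction and side of the threshold, and the other 9 were those of Synpo2, which passed. In cluster 5 against the other clusters 140 did, 12 lost the call, 7 gained it and 11 changed sign, and between clusters 10 and 5 the counts were 153, 3, 4 and none. The changes of sign concerned uncalled genes of cluster 5. Cnn1 was 0.616 in cells with no cluster 10 cell in the row or column, 0.353 with the median gene set to 0, 0.278 in thinned cells and -1.537 to 0.366 when leaving out 1 line. Synpo2 was 0.032 with at least 10 cells per sum, 0.132 in cells with no such neighbour, 0.38 with the median gene at 0, 0.003 without the replicate block and -0.844 to 0.231 when leaving out 1 line. The number of the 10 genes called in cluster 5 was 5, with 1 in a fit of the 2 classes alone and 3 to 5 when leaving out 1 line. The count of all genes called in that fit of the 2 classes is not given here. DESeq2 called 2 pairs among the 9 other clusters against 0. The lines pair the sums, and without the replicate block 10, 6 and 9 of the 10 genes were called in the 3 comparisons, against 9, 5 and 8 with it. In both comparisons with cluster 5 the counts of all genes called rose too, as given below.

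The count of all genes called in cluster 10 against the other clusters was 1041, with 2336 by DESeq2, 1657 with ERCC scaling, 2319 with sums per plate and line and 367 to 811 when leaving out 1 line. In cluster 5 against the other clusters it was 131, with 1108 by DESeq2, 212 with at least 10 cells per sum, 222 with no filter on low counts, 305 without the replicate block, 452 with sums per plate and line, 217 in thinned cells and 48 to 114 when leaving out 1 line. Between clusters 10 and 5 it was 624, with 2028 by DESeq2, 1331 without the replicate block, 244 in a fit of the 2 classes alone, 1646 with sums per plate and line and 339 to 526 when leaving out 1 line. The cause of these changes was not tested. Thinning of cells for the correlations, and its omission for the shares, were chosen after seeing the data. Sums of 3 cells, C57BL6 in cluster 10 and Cspg4dsRED in cluster 5, limit the precision of both clusters.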
